A study of Mus musculus with 24 samples.

Results

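Genes that mark the germline and pluripotent cells, Pou5f1 (Oct4), Nanog, Prdm1, Prdm14, Tfap2c, Dppa3, Dazl, Ddx4, Stra8 and Sycp3, were examined in the somatic supporting cells of the fetal mouse gonad. They were chosen by name, with earlier results of these data known, and are 10 of the 37310 genes annotated on mm9 (GENCODE release M1). Their counts below are thus not those of a list drawn up blind to the data. H3K4me3, H3K27me3 and total histone H3 were profiled by ChIP-seq in 4 populations sorted by a fluorescent reporter from gonads freed of the mesonephros, on a C57BL/6 x CD1 background. Bipotential progenitor cells came from XY and from XX gonads at E10.5 that carried SF1-eGFP, Sertoli cells from XY gonads at E13.5 that carried Sox9-CFP, and cells labelled granulosa (pregranulosa at this stage) from XX gonads at E13.5 that carried TESM-CFP. Each reporter rests on 1 gonadal enhancer or gene, so a population is the set of cells that expressed it, and both sexes and all 4 populations carried a transgene. Of 24 samples, 2 replicates for each of 3 antibodies in each population, the peak calls were given as 8 lists, 1 for each of the 2 marks in each population with both replicates joined.

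H3K4me3 is deposited at active and poised promoters, and H3K27me3 is the mark that Polycomb repressive complex 2 lays over silent developmental genes. A promoter with both is called bivalent, a state first described in embryonic stem cells at genes kept silent but ready for use. In the gonad these 10 genes are best known from germ cells, which reach it as primordial germ cells at about the stage of the progenitor samples. Whether the sorted somatic cells expressed any of them was not analysed here.

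Each gene was described by a window of 2 kb on either side of its annotated transcription start site (TSS) and by its gene body. It was called marked where a region of the list overlapped by at least 1 bp. The lists record position and no level of enrichment, and with 1 joined list per mark and population no spread between replicates can be given and no test between populations was made. A list also does not say whether 2 marks lay on the same cells. Values given for all 4 populations follow one order: XY progenitor, XX progenitor, Sertoli, pregranulosa. Counts over the 10 genes are set beside the share of 21418 autosomal protein-coding genes with the same call, called all genes below. The headers gave 10162534 to 49254553 tags for H3K4me3 and 6470151 to 44446456 for H3K27me3, the fewest for both marks in XY progenitor cells, and the depth behind the pregranulosa lists is unknown. Single peak windows, 1001 bp for H3K4me3 and 5001 bp for H3K27me3, made up 48.2% of the H3K4me3 regions in XY progenitor cells and 24.9% to 31.7% in the other H3K4me3 lists, and for H3K27me3 35.6% and 16.9% to 21.4% likewise. Among 5 markers each, the progenitor genes carried H3K27me3 at 5 windows in both E10.5 lists, at 2 in Sertoli and at 0 in pregranulosa cells. Sertoli markers (Sox9, Amh, Dhh, Fgf9, Ptgds) carried it at 0 windows in Sertoli cells and at 4 in pregranulosa cells. Pregranulosa markers (Foxl2, Wnt4, Rspo1, Fst, Irx3) carried it at 5 in Sertoli and at 3 in pregranulosa cells. Of markers of other cells, 1 of 5 endothelial and 2 of 5 steroidogenic windows carried H3K27me3 in each list, and 0, 1, 2 and 0 of 3 blood windows. H3K4me3 was called at 1, 1, 1 and 2 of 5 endothelial, 3, 5, 4 and 4 of 5 steroidogenic and 0 of 3 blood windows.

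The promoters below show how different the sequences of these genes are at their starts. They are the 250 bases before the RefSeq start, 5′ to 3′ on the gene's strand, from the RefSeq promoter table (GRCm38.p6) and placed on mm9 by exact match, with every CpG in capitals. Pou5f1 and Nanog were chosen as starts under H3K27me3 with few CpGs, and Dazl, Ddx4 and Sycp3 as starts without H3K27me3 that held more of them. Of the 10 genes, 7 had entries in the table. The stretches lie at chr17:35642727-35642976 (+) for Pou5f1, chr6:122657257-122657506 (+) for Nanog, chr17:50432946-50433195 (-) for Dazl, chr13:113442519-113442768 (-) for Ddx4 and chr10:87922082-87922331 (+) for Sycp3.
Pou5f1: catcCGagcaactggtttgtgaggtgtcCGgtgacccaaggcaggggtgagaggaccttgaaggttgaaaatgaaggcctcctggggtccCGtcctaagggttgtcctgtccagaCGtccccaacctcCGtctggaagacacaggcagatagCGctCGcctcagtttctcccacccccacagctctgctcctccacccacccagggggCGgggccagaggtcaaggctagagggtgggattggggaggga
Nanog: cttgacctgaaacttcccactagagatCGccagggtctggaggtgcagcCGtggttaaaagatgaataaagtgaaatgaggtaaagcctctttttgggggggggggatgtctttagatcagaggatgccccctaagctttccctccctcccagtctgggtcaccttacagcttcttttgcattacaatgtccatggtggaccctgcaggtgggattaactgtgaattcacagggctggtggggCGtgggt
Dazl: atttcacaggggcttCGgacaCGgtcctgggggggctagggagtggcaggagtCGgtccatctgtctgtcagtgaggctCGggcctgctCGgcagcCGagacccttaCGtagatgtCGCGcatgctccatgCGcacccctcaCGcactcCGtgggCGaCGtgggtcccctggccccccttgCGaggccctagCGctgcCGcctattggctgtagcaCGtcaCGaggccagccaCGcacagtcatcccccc
Ddx4: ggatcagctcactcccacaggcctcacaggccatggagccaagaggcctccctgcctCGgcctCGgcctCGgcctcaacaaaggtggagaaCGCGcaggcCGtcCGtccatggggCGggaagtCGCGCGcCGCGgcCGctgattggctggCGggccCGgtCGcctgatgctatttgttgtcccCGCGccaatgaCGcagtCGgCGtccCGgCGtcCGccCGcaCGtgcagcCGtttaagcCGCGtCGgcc
Sycp3: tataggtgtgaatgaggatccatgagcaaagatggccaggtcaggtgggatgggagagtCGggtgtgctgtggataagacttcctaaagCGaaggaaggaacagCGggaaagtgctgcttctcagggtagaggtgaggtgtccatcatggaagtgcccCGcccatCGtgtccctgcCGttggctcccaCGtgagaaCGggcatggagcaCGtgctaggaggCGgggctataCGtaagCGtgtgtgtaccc

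The stretch before Ddx4 held 31 CpGs (as many as its base content predicts, GC 70.4%), that of Dazl 20 (CpG observed over expected 0.710, GC 67.2%) and that of Sycp3 12 (0.639, 57.2%). Pou5f1 held 8 (0.334, 62.0%) and Nanog 3 (0.182, 52.0%). Stra8, at its RefSeq start 785 bp downstream of the annotated one, held 5 (0.267), and Prdm1, at the start of its coding transcripts, held 15 (0.710). Both go against the contrast for which the printed starts were chosen. Prdm1 lay under H3K27me3 at this start in every list, and Stra8 in none. Ddx4 had 1 CACGTG (an E-box, the same on both strands) with its first base at -29 and 1 GCGGGA or TCCCGC (the core of E2F sites, on either strand) at -136. Sycp3 had 2 CACGTG at -64 and -43 and 1 E2F core at -147. The stretches of Pou5f1, Nanog, Prdm1, Dazl and Stra8 held neither. Over 32817 RefSeq promoters of the same length, 6.02% held CACGTG and 16.9% held the E2F core.

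At their TSS windows the 10 genes fell into those with H3K27me3 and those without it. H3K27me3 was present at Pou5f1, Nanog, Prdm1, Prdm14, Tfap2c and Dppa3, which act in pluripotency or in the specification of primordial germ cells, and it filled the whole window wherever it was called. The exception in those 6 was Dppa3 in pregranulosa cells, where it was absent. At Dazl, Ddx4, Stra8 and Sycp3, which act in later germ cells and in meiosis, no H3K27me3 was called in any list. The counts were therefore 6, 6, 6 and 5 of 10, where 23.6%, 22.8%, 24.2% and 22.1% of all genes were marked. Over all 4 populations 5 of the 10 genes kept the mark, against 16.3% of all genes, and 4 never had it, against 68.8%. Where H3K27me3 was called at any gene it filled the whole window in 63.3% to 73.7% of cases.

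**Figure D1:**
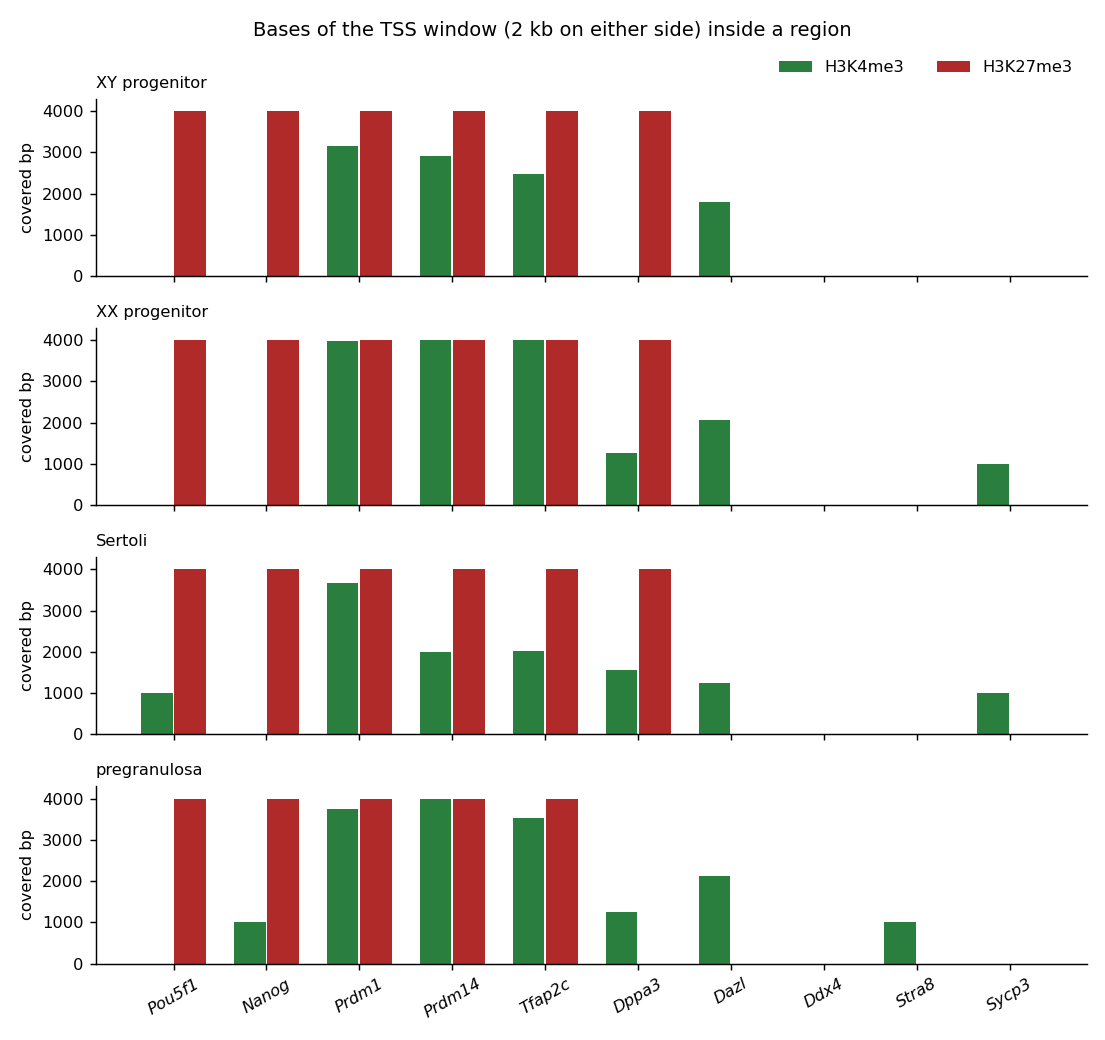
Bases of each gene's TSS window (2 kb on either side) that lay inside a region, H3K4me3 in green and H3K27me3 in red, 1 panel per population and 1 pooled list per bar. H3K27me3 filled the window of 6 genes in 3 populations and of 5 in pregranulosa cells, and was 0 at Dazl, Ddx4, Stra8 and Sycp3 in all.

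H3K4me3 was called at 4, 6, 7 and 7 of 10 windows, where 64.8%, 66.7%, 65.5% and 67.0% of all genes had it. Prdm1, Prdm14, Tfap2c and Dazl carried it in all 4 lists, as did 62.5% of all genes. Ddx4 carried it in none, as did 30.0%. Both marks were present at 3, 4, 5 and 4 windows in the same order of populations, beside 20.9%, 21.4%, 19.2% and 19.6% of all genes. Neither mark was present at 3, 2, 2 and 2, beside 32.4%, 31.8%, 29.5% and 30.5%. Of the 10 genes, 3 had both marks in all 4 lists, against 14.0% of all genes, 1 had neither mark in any, against 26.3%, and 5 changed class between lists, against 20.7%. At Pou5f1, Nanog, Stra8 and Sycp3 the class changed only through single H3K4me3 windows of 1001 bp. The share of all genes that change class without such windows was not computed. The share of the 10 genes with H3K4me3 was thus below the genome's in XY progenitor cells and near it in the other lists.

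In the gene body, H3K4me3 was called at 4, 5, 6 and 7 of the 10 genes, against 69.4%, 70.9%, 70.0% and 71.5% of all genes. H3K27me3 was called in the body of 6, 6, 6 and 5, against 26.1%, 25.3%, 27.1% and 25.0%, and these were the genes that had it at the window.

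**Figure D2:**
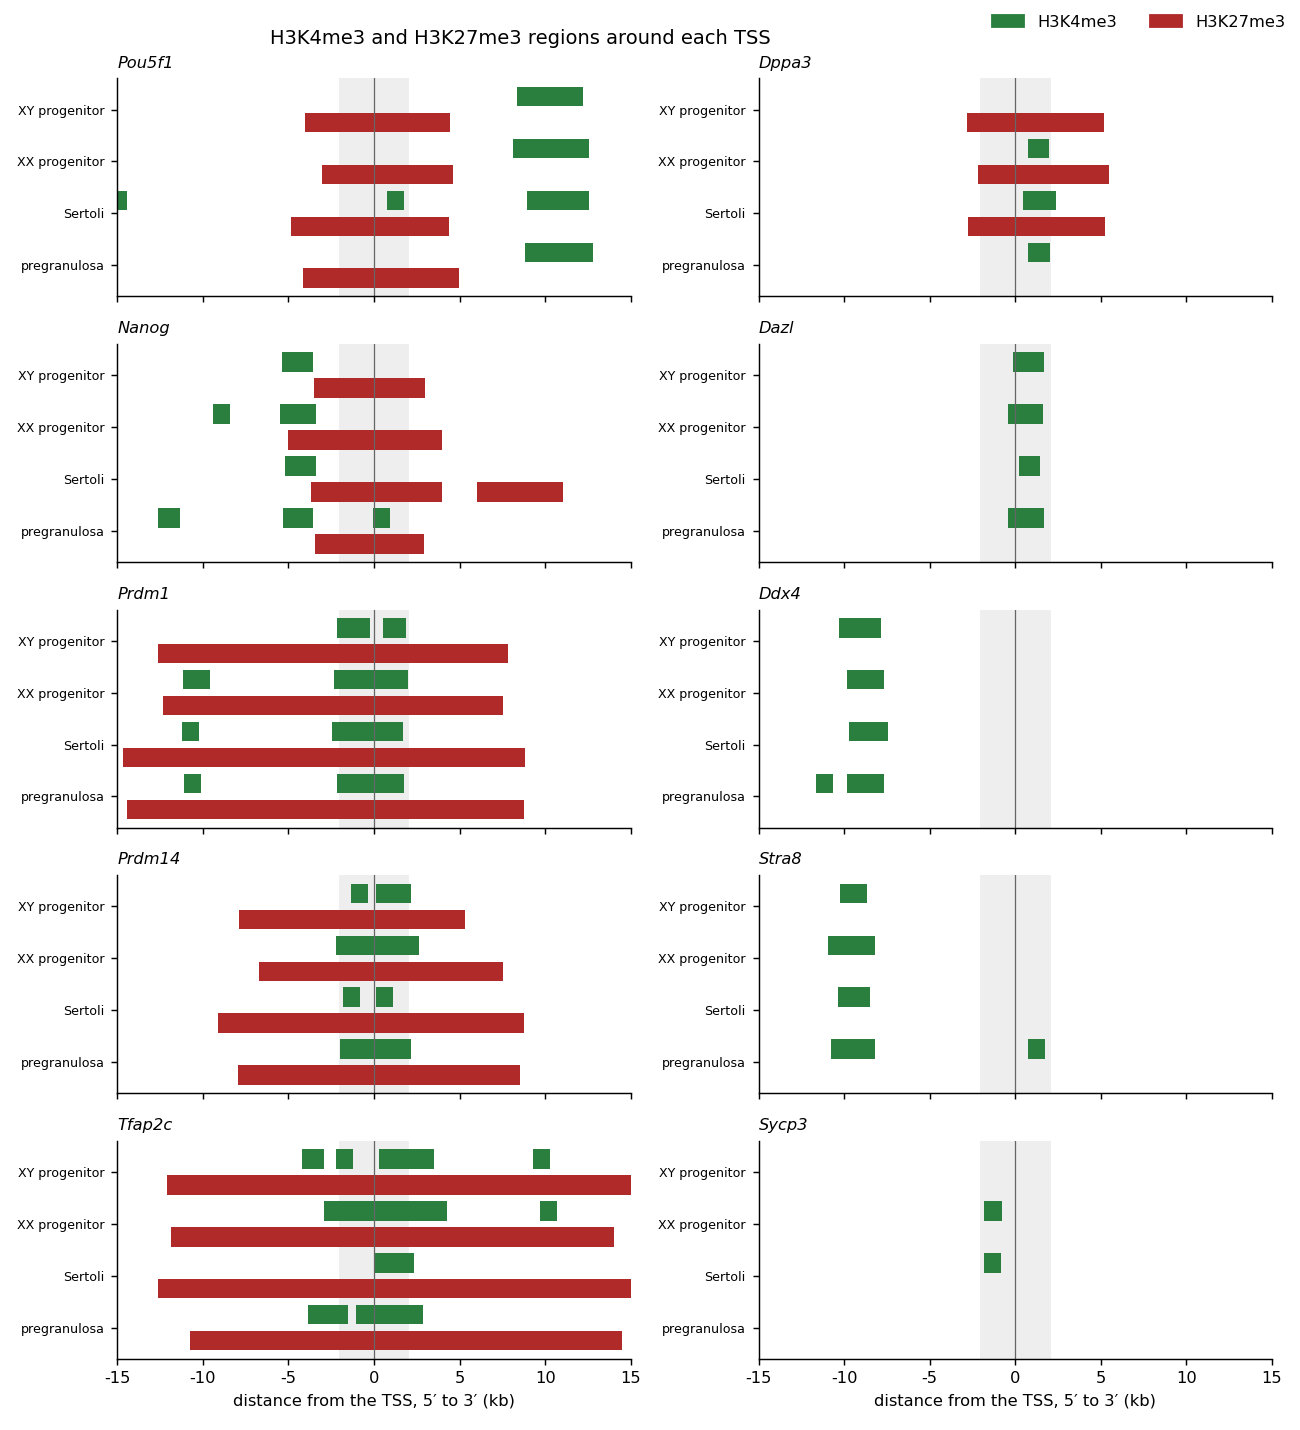
Regions within 15 kb of each TSS, drawn by distance from the TSS in the direction of transcription, H3K4me3 in green above H3K27me3 in red for each population, with the window shaded. H3K27me3 regions spread past the window on both sides at 6 genes, and at Dazl an H3K4me3 region alone lay at the start.

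Pou5f1 encodes the POU-domain factor Oct4, which holds embryonic stem cells and early germ cells in the pluripotent state (chr17:35642982-35647721, + strand, ENSMUSG00000024406.9). An H3K27me3 region of 8511, 7634, 9228 and 9137 bp lay over its TSS. These regions reached from 3018 to 4853 bp upstream of the TSS to 4374 to 4973 bp downstream and covered 94.1%, 97.4%, 92.3% and 100% of the gene body. All 4 lists thus placed the mark over the proximal upstream sequence, the first exon and nearly the whole gene. H3K4me3 was absent from the window in 3 lists. In Sertoli cells 1 window of 1001 bp was called from 763 to 1763 bp downstream of the TSS, with 682 bp in an intron and 319 bp in an exon of an alternative transcript. The next H3K4me3 began 8125 to 8949 bp downstream, at the shared start region of Tcf19 and Cchcr1, whose windows had H3K4me3 alone in all 4 lists.

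The ChIP-qPCR primer pair that the study designed for Oct4 was placed on mm9 to see which part of the region it reads.
forward: tggctgagtgggctgtaagg
reverse: caaaccagttgctcggatgc
It spans 86 bp (chr17:35642660-35642745), from -322 to -237 bp relative to the TSS, and its 3′ end reaches into the printed promoter stretch. H3K27me3 covered all 86 bp in each of the 4 lists, and H3K4me3 covered 0 bp in each.

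Nanog, the homeobox factor that sustains pluripotency together with Oct4 (chr6:122657507-122664651, + strand), had an H3K27me3 region of 6483, 9027, 7634 and 6358 bp over its TSS. The mark covered 41.6%, 55.8%, 70.9% and 41.1% of the gene body, always the 5′ part, and in Sertoli cells a second region of 5001 bp lay at the 3′ end. The region over the TSS thus ended nearer to it at Nanog, 2934 to 3989 bp downstream, than at Pou5f1. A single H3K4me3 window of 1001 bp was called over the TSS in pregranulosa cells, from 77 bp upstream to 923 bp downstream, and none in the other lists. An H3K4me3 region of 1832, 2131, 1814 and 1754 bp lay upstream of the window in all 4 lists, ending at -3563, -3391, -3411 and -3592 bp from the TSS. It met the H3K27me3 region over 1647 bp in XX progenitor cells and 278 bp in Sertoli cells, and not at all in the other lists. The only annotated TSS within 10 kb was that of the pseudogene Gm10224, 8439 bp upstream.

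Prdm1, which encodes Blimp1, the repressor that starts germ cell specification, had both marks in all 4 lists (chr10:44156983-44248307, - strand). H3K4me3 covered 3148, 3971, 3680 and 3735 bp of the window, inside H3K27me3 regions of 20459, 19854, 23514 and 23190 bp. The annotated 5′ end belongs to a processed transcript, and the coding transcripts start 69753 and 69814 bp further downstream, where both marks were present again. At the coding start, H3K4me3 covered 2787, 3244, 3313 and 3328 bp of the window and H3K27me3 all of it. The share of the gene body under H3K27me3 was 36.3% and 32.9% in XY and XX progenitor cells and 67.5% and 70.1% in Sertoli and pregranulosa cells. The region around the coding start was 25308 and 22487 bp wide at E10.5 and 34786 and 44837 bp wide at E13.5. Both E13.5 values were above both E10.5 values at Prdm1, a comparison of single lists in which the median promoter region was also wider at E13.5 (10746 and 10195 bp against 7778 and 8804 bp).

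Prdm14, a further PR-domain factor of germ cell specification that also guards naive pluripotency (chr1:13103538-13117244, - strand), carried both marks in all 4 lists. H3K4me3 covered 2904 bp in XY progenitor and 2002 bp in Sertoli cells, each as 2 regions that left the TSS free by 98 and 101 bp. It covered the whole window in XX progenitor and pregranulosa cells, as 1 region of 4839 and of 4141 bp. The window was thus filled in both XX lists and in neither XY list. Among all genes with H3K4me3 it was filled more often in the XX lists too, in 6.23% of XX progenitor and 5.89% of pregranulosa cases against 2.10% of XY progenitor and 3.96% of Sertoli cases. The H3K27me3 regions were 13227, 14280, 17865 and 16490 bp wide and covered 38.7%, 55.0%, 63.7% and 62.3% of the gene body.

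Tfap2c, named Tcfap2c in the annotation, encodes the AP-2γ factor that acts with Prdm1 and Prdm14 in germ cell precursors (chr2:172375093-172384122, + strand). It lay under H3K27me3 regions of 29454, 25923, 28972 and 25250 bp, which covered 100% of the gene body in every list. H3K4me3 covered 2467, 2015 and 3524 bp of the window in XY progenitor, Sertoli and pregranulosa cells and all of it in XX progenitor cells. As at Prdm14, the XX lists had more of the window under H3K4me3 than the XY list of the same stage. The median cover over all genes with H3K4me3 had the same order, 2208 bp in XY and 2812 bp in XX progenitor cells, 2542 bp in Sertoli and 2732 bp in pregranulosa cells. Tag numbers differed in the same direction at E10.5, where the XX list had the most and the XY list the fewest, and are unknown for pregranulosa cells, and their part in the difference was not tested.

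Dppa3 encodes Stella, a maternal factor expressed in primordial germ cells from their specification on (chr6:122576428-122580290, + strand), and its TSS lies 81079 bp from that of Nanog. H3K27me3 regions of 7975, 7631 and 8004 bp covered the whole gene in both progenitor populations and in Sertoli cells, 100% of the body in each. In pregranulosa cells the window and the body held 0 bp, and the nearest H3K27me3 region was 32546 bp from the TSS. This was the only loss between E10.5 and E13.5 among the 10 genes. It rests on the pregranulosa list, whose depth is unknown and whose peaks, unlike those of the other H3K27me3 lists, did not overlap each other. Of all genes with H3K27me3 in XX progenitor cells, 18.5% had none in pregranulosa cells, and of those with it in XY progenitor cells, 22.4% had none in Sertoli cells. H3K4me3 was absent in XY progenitor cells, with the nearest region 23313 bp away, and covered 1260, 1561 and 1254 bp of the window in the other 3 lists. These regions began 727, 440 and 747 bp downstream of the TSS and lay in intron sequence, apart from 233 bp of coding exon in Sertoli cells. The window therefore had H3K27me3 alone in XY progenitor cells, both marks in XX progenitor and Sertoli cells and H3K4me3 alone in pregranulosa cells. The window of a Y_RNA 2863 bp upstream, the only other annotated TSS within 10 kb, overlaps that of Dppa3. The same H3K27me3 regions reached into it in these 3 lists, but they began at -2792, -2165 and -2770 bp and did not include the Y_RNA start.

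**Figure D3:**
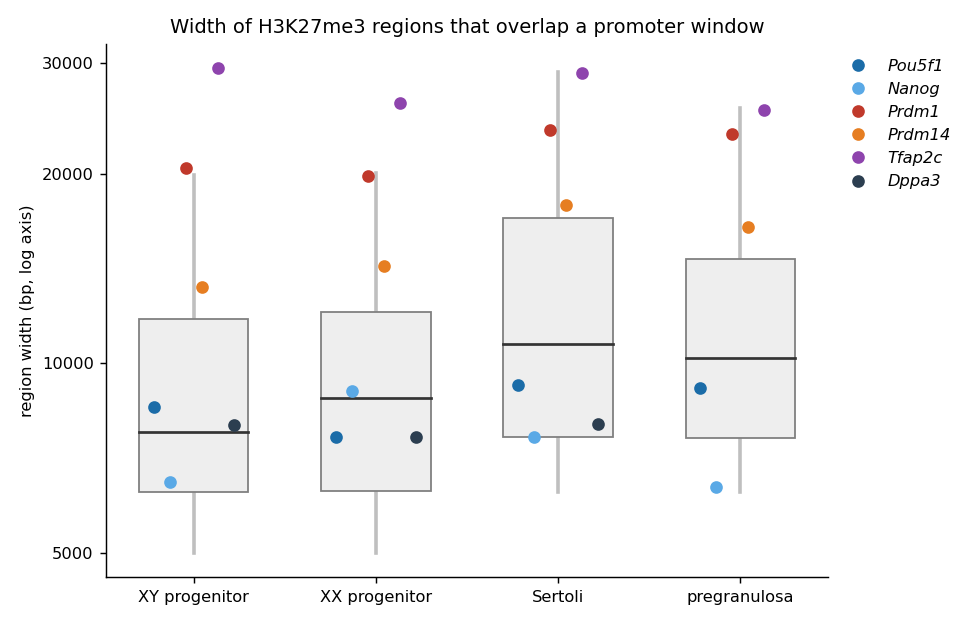
Width of the H3K27me3 region at each marked gene (points, log axis) in each population, over the 25th to 75th percentile (box), median (line) and 10th to 90th percentile (bar) of all regions that overlapped a promoter window. Tfap2c, Prdm1 and Prdm14 lay above the box in all 4 populations, and Pou5f1, Nanog and Dppa3 in or below it.

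Among all H3K27me3 regions at promoters, the region of Tfap2c stood at percentiles 95.6, 93.8, 89.9 and 89.9. Prdm1 stood at 90.6, 89.9, 85.0 and 88.0, and Prdm14 at 79.8, 81.6, 76.9 and 79.7. Pou5f1 stood at 55.5, 39.8, 39.3 and 42.5, Nanog at 40.1, 55.4, 24.7 and 17.2, and Dppa3 at 52.2, 39.7 and 30.3 in the 3 lists that had it. The 3 genes under broad regions were those with both marks in every list, while the 3 under regions nearer the median had H3K4me3 in 1 to 3 lists.

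Dazl, an RNA-binding protein that licenses germ cells for gametogenesis (chr17:50418719-50432924, - strand), had H3K4me3 alone in all 4 lists. It covered 1787, 2064, 1256 and 2134 bp, in 1 region that in 3 lists included the TSS and in Sertoli cells began 199 bp downstream of it. No H3K27me3 region lay closer than 52640 bp in any list. The Dazl regions were narrow for a promoter, at percentiles 33.7, 19.5, 8.19 and 25.4 of the H3K4me3 regions at promoters. All of their 32-base words occurred once in the genome (100% in each list).

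Ddx4 encodes the germ cell RNA helicase Vasa (chr13:113388541-113442518, - strand). Its window and its body of 53978 bp held 0 bp of either mark in every list. The nearest H3K4me3, 7416 to 7856 bp upstream, lay at the start of Slc38a9 at -8466 bp, a window with H3K4me3 alone in all 4 lists. The nearest H3K27me3 was 70118 to 106405 bp away. In the window of Ddx4, 97.8% of 32-base words occurred once in the genome.

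Stra8, which is induced by retinoic acid when germ cells enter meiosis (chr6:34870163-34889342, + strand), had neither mark in 3 lists. In pregranulosa cells 1 window of 1001 bp of H3K4me3 was called 743 to 1743 bp downstream of the annotated TSS and across the RefSeq start. There, 65.9% of the 32-base words occurred once in the genome, the lowest share among the regions at the 10 genes. The nearest H3K27me3 was 24210 to 27704 bp away, and Wdr91, whose TSS lay 9287 bp upstream, had H3K4me3 alone in all 4 lists.

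Sycp3, a component of the synaptonemal complex that pairs meiotic chromosomes (chr10:87922314-87935981, + strand), had neither mark in XY progenitor and pregranulosa cells. In XX progenitor and Sertoli cells a single H3K4me3 window of 1001 bp was called, from -1800 to -800 and from -1838 to -838 bp relative to the TSS, outside the gene. No H3K27me3 lay within 98240 bp in any list, and the noncoding Gm16235, 9682 bp upstream, had neither mark.

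The H3K4me3 calls at Pou5f1, Nanog, Stra8 and Sycp3, 5 in all, were each a single window of the smallest common size. When regions of that size were left out, none of the 5 remained, and Prdm14 also lost its call in Sertoli cells, where its 2 regions were single windows. H3K4me3 counts then were 4, 5, 4 and 5 of 10. Requiring the TSS base itself to lie in a region left H3K4me3 at 1, 4, 2 and 5 genes. Neither choice changed an H3K27me3 call, and the TSS base could not, because the mark filled every window where it was called.

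The starts were classed by the highest CpG observed over expected in a 500-bp window from 700 bp upstream to 200 bp downstream of the annotated TSS. A start was low below 0.48 and high from 0.75 with a GC content of at least 55%. Nanog (0.306), Stra8 (0.364), Pou5f1 (0.371), Dppa3 (0.395) and Prdm14 (0.463, close to the limit) were low, Prdm1 (0.663) and Sycp3 (0.702) intermediate, and Tfap2c (0.762), Dazl (0.897) and Ddx4 (0.935) high. Of 8655 low-CpG genes, 9.46% had H3K27me3 in all 4 lists, as had Pou5f1, Nanog and Prdm14, and 5.63% had both marks in all 4, as had Prdm14. The class reads a shorter span than the TSS window in which marks were called. Over the whole window, CpG observed over expected was 0.563 at Prdm14, above its class value, and 0.536 at the high-CpG Ddx4. At Pou5f1 and Nanog it was 0.263 and 0.281. The low class of Prdm14 thus does not describe its whole window. Of 7538 high-CpG genes, 99.3%, 99.7%, 99.4% and 99.6% had H3K4me3, and Ddx4 had it in none. In this class 13 genes (0.172%), Ddx4 among them, had neither mark in any list. The windows of Tfap2c and Dazl, of the same class, had H3K4me3 in every list, and that of Tfap2c both marks in all 4, as had 17.0% of the class.

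**Figure D4:**
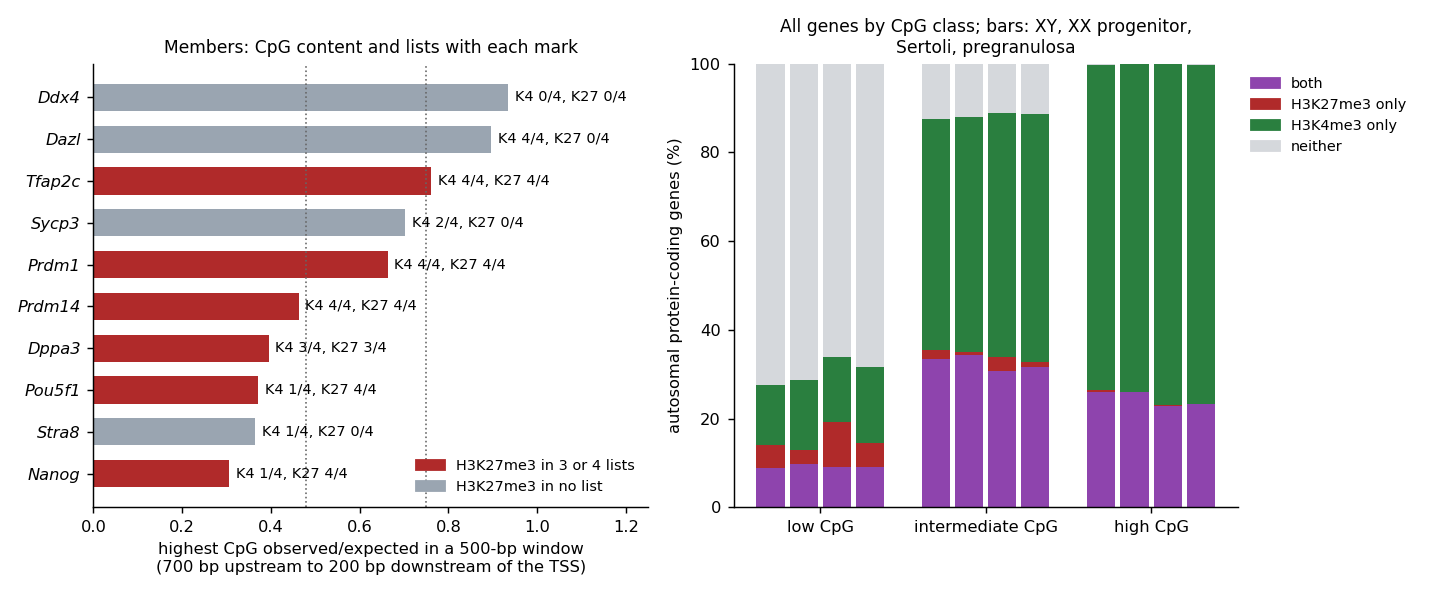
Left, highest CpG observed over expected near the TSS of each gene, red where H3K27me3 was called, with the number of lists (of 4) that had each mark and the class limits at 0.48 and 0.75 dotted. Right, share of autosomal protein-coding genes in each mark class by CpG class and population; almost no high-CpG gene lacked both marks, and Ddx4, the gene with the highest value on the left, did.

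A further 74 genes of the same kinds, 21 of pluripotency, 22 of germ cells, 19 of meiosis and 12 of oocytes, were counted in the same way and read against the same shares of all genes. These 74 were also listed with earlier results of these data known. All but Tex11 and Bmp15, which lie on the X chromosome, are autosomal. Of the pluripotency genes, 14 of 21 (66.7%) had H3K27me3 in each list taken alone, against 23.6%, 22.8%, 24.2% and 22.1% of all genes. The 14 were not the same genes throughout: Klf4 lacked it in Sertoli cells, Dnmt3l lacked it in pregranulosa cells, and Lin28a had it in the E13.5 lists alone. Of the 21, 9 had both marks in all 4 lists, where 14.0% of all genes did, among them Tbx3, Sox2 and Klf5. Dppa2, Dppa4 and Gdf3 had neither mark in any list. Of the germ cell genes, 11 of 22 had neither mark in any list, where 26.3% of all genes did, among them Asz1, Brdt and Gtsf1, which act in the piRNA pathway or in spermatogenesis. Tex14 had H3K4me3 alone, as Dazl did, and Kit, Tdrd6 and Tdrd5 had both marks. Over the 22 germ cell genes, H3K27me3 was called at 6, 5, 8 and 5 (27.3%, 22.7%, 36.4% and 22.7%), shares near those of all genes or above them. Of the oocyte genes, 7 of 12 had neither mark throughout, such as Bmp15, Nlrp5 and Oosp1, while Lhx8 had both and Gdf9 H3K4me3 alone. Over the whole of this list, H3K27me3 was called at 37.8%, 36.5%, 36.5% and 32.4% (28, 27, 27 and 24 of 74), against 23.6%, 22.8%, 24.2% and 22.1% of all genes. H3K4me3 was called at 40.5%, 47.3%, 50.0% and 51.4% (30, 35, 37 and 38), against 64.8%, 66.7%, 65.5% and 67.0%.

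Of the meiosis genes, 12 of 19 changed class between lists, beside 9 of 21 pluripotency, 7 of 22 germ cell and 3 of 12 oocyte genes and 20.7% of all genes. At some of the meiosis genes the class changed only through H3K4me3 cover of 1001 bp, the size of a single window. Tex11, also among them, is X-linked, while all genes here are autosomal. Neither mark was found in any list at 5 of 19, among them Hormad1, Syce1 and Syce3, a share near the 26.3% of all genes. Msh5 had H3K4me3 alone, and Sycp2 had H3K27me3 alone (6 to 1963 bp of the window). H3K27me3 was called at 7 and 7 of the 19 in the progenitor lists (36.8% in each), at 4 in Sertoli cells (21.1%) and at 3 in pregranulosa cells (15.8%), the Sertoli share near and the pregranulosa share below that of all genes. The X-linked Tex11 had it over the whole window in both XX lists and not in the XY lists, and the autosomal meiosis genes alone gave 7, 6, 4 and 2 of 18. Dmc1, the meiotic recombinase, had H3K27me3 over the whole window in both progenitor lists and none in Sertoli or pregranulosa cells, with H3K4me3 in all 4 lists. Smc1b, a meiotic cohesin subunit, had it in 3 lists and not in pregranulosa cells, as Dppa3 did. Spo11, which cuts the DNA that recombination repairs, and the germ cell gene Ifitm3 had it in Sertoli cells and in no other list. Klf4 had it in 3 lists and not in Sertoli cells. Lin28a had it in both E13.5 lists and in neither E10.5 list, while its H3K4me3 cover was the whole window at E10.5 and 1001 and 1804 bp at E13.5. From XY progenitor to Sertoli cells, 6 of the 28 marked genes of this list lost H3K27me3 (21.4%, against 22.4% of all marked genes) and 5 of the 46 unmarked ones gained it (10.9%, against 7.68%). From XX progenitor to pregranulosa cells, 6 of 27 lost it (22.2%, against 18.5%) and 3 of 47 gained it (6.38%, against 4.43%). The shares lost were thus near those of all genes.

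**Figure D5:**
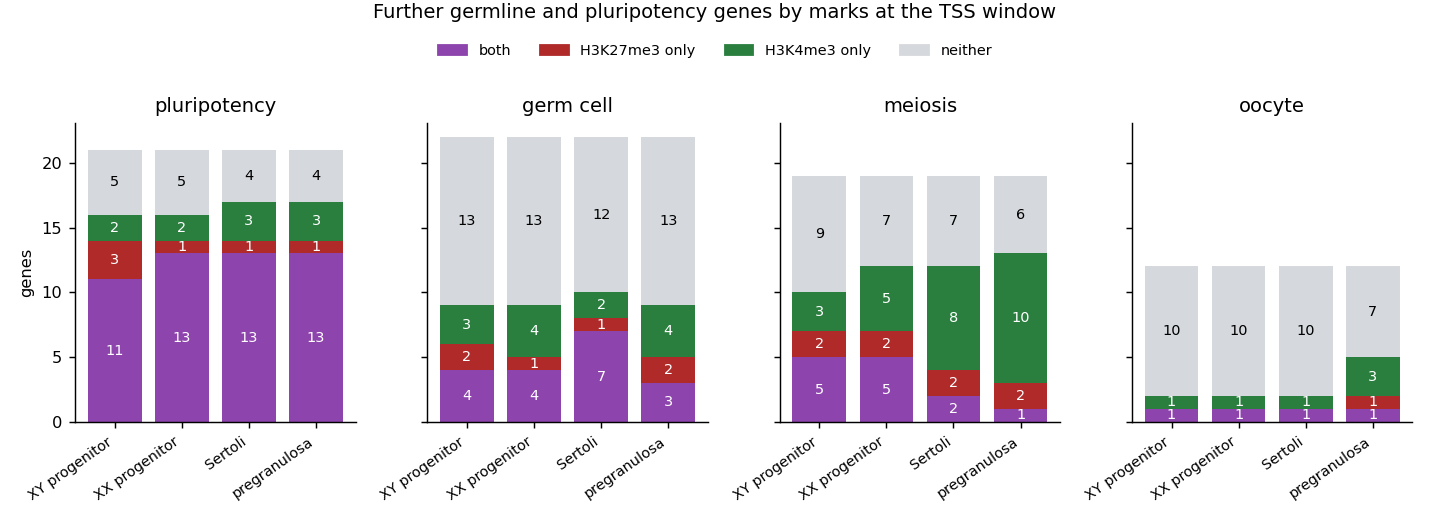
Number of the further 74 genes in each mark class at the TSS window, by role and population. Both marks made up 11 to 13 of 21 pluripotency genes, while neither mark made up 12 or 13 of 22 germ cell genes and 7 to 10 of 12 oocyte genes.

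Of 14 proneural genes, which are known Polycomb targets outside the nervous system, 13 (92.9%) had H3K27me3 in each list. Of the 10 germline and pluripotency genes, 6, 6, 6 and 5 had it, beside 23.6%, 22.8%, 24.2% and 22.1% of all genes. Of 10 housekeeping genes, all had H3K4me3 in every list, and H3K27me3 was called at 1 of them, in XX progenitor cells alone. Dazl had the class of the housekeeping genes, H3K4me3 without H3K27me3, and Ddx4 had neither mark, as had 1 of the 14 proneural genes in each list.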

How the data were processed

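Reads were trimmed with Trim Galore, aligned to mm9 with Bowtie and handled with SAMtools, and peaks were called with HOMER against total H3, per the labels and the study's methods. How reads with several matches were treated is not given in the sources used here. The authors deposited 8 peak lists, 1 per mark and population, with both replicates joined. The headers of 6 lists gave peak sizes of 1000 bp for H3K4me3 and 5000 bp for H3K27me3, 4.00 times the H3 control and a Poisson p-value of 1.00e-04, and 2 lists, those of pregranulosa cells, had no header. The pregranulosa H3K27me3 list also differed in form, with 12609 peaks that gave 12609 regions. In the XY progenitor, XX progenitor and Sertoli lists, 36469, 74001 and 74154 H3K27me3 peaks joined into 9693, 9309 and 13313 regions. The score column in the deposited lists holds the same value in every row and was not used, so the only measurements are peak starts and ends, and depth is known from headers alone. No column of other samples was present.

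Overlapping peaks of a list were joined into regions, and positions were counted from 1. Bases inside regions were summed over TSS ± 2 kb and over the annotated gene on GENCODE M1 (NCBIM37). No peak lay beyond a chromosome end of that build. Tfap2c, Tfcp2l1 and Spi1 were matched to older symbols through RefSeq synonyms. All 10 genes were named. From the further list, at most 3 genes per role and per class held in all 4 populations were named by covered bases and then symbol, and at most 6 whose H3K27me3 call differed between stages, by bases changed. Dnmt3l was named outside this rule, to account for the count of pluripotency genes. Neighbours with a TSS within 10 kb were named, and Tcf19 and Cchcr1, whose TSSs lie 10787 and 11063 bp from that of Pou5f1, were added after their values were seen. The members and lists were chosen with earlier results of these data known. Words of 32 bases were counted over both strands of the whole genome. Alternatives changed the window, overlap, TSS, region width, list length and merging. The steps were tested on simulated data, where 100% of 3000 classes came out as made, and the sum of covered bases matched that of bedtools (version 2.31.1) in 2000 of 2000 intervals. Software was Python 3.11.15 with NumPy 2.4.6 and matplotlib 3.10.9. Expression and qPCR were not analysed here.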

Additional observations from a re-analysis of the deposited data

How the results depend on the processing

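No H3K27me3 call at the 10 genes changed under any of the 9 alternatives, 2 of them chosen after seeing the data (regions wider than a single window, and the RefSeq start). Several of these could not change it. The mark filled every window where it was called, so the 1 kb window, 500 bp of cover and the TSS base had to keep it. Where it was not called, the nearest region lay at least 24210 bp away, beyond the reach of merging. Of 80 calls per alternative, 12 changed when the TSS base itself had to lie in a region, 6 with the widest 75% of regions, 6 with regions wider than a single window and 2 with lists of equal length (ties in width broken at random), all of them H3K4me3 calls that were lost. None changed with a window of 1 kb on either side, 500 bp of cover, every transcript start, merging within 1 kb or the RefSeq start. Of 196 counts, 188 stayed within 1.5 times their value. With the TSS base inside a region, H3K4me3 was at 1 of 10 genes in XY progenitor and 2 in Sertoli cells, and both marks at 0 and 2. With the widest 75% of regions, and likewise with regions wider than a single window, Sertoli cells had H3K4me3 at 4 genes and both marks at 3. The cause was not tested. Over every annotated gene, the background was 46.8% to 49.2% for H3K4me3 and 17.8% to 20.6% for H3K27me3. No paired analysis was possible because each list joins both replicates, and for the same reason no replicate could be left out. With no level in the lists and an unknown depth for pregranulosa cells, an absent region means only that none was called.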

Other observations

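The 13 high-CpG genes with neither mark in any list, of 7538 in that class, were looked at by name after their values were seen. Besides Ddx4 they were Mael, Hormad1, Sycp1, Tex12, Stk31, Spata22, Hsf5, Pramel1, Foxr1, Fam178b, Gm10308 and CT009512.1. Mael (piRNA pathway), Hormad1 (meiotic chromosome axis), Sycp1 and Tex12 (synaptonemal complex) stand on the list of 74, and Stk31 and Spata22 are also known from germ cells. Their highest CpG observed over expected was 0.864 at Mael, 0.789 at Hormad1, 0.899 at Sycp1 and 0.831 at Tex12, against 0.935 at Ddx4. In contrast Tex14 (0.972), Msh5 (0.815) and Gdf9 (1.07), of the same CpG class, had H3K4me3 alone in all 4 lists, as Dazl did (0.897). The list of 74 held 20 high-CpG genes, and only Mael, Hormad1, Sycp1 and Tex12 of them had neither mark in any list. Others of the 20, such as Tbx3, Sox2 and Klf5, had both marks in all 4. DNA methylation was not among the data analysed here.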
